A study of Mus musculus with 6 samples.

Results

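The TGF-beta pathway genes were 9 of the 17684 genes in the deposited table, taken by name: the ligands Tgfb1, Tgfb2 and Tgfb3, the receptors Tgfbr1 and Tgfbr2, the latency protein gene Ltbp1, the signal carriers Smad3 and Smad7, and Ctgf, now named Ccn2. They were measured by RNA sequencing of whole mouse kidney in 3 Db and 3 Db + Ato10 libraries. Db animals were diabetic db/db mice, which lack a working leptin receptor, of a strain labelled C57 BLKS/L (C57BLKS/J in the study's methods), given saline. Db + Ato10 animals were db/db mice of the same strain given atorvastatin, a statin that blocks HMG-CoA reductase, by gavage at 10 mg/kg per day for 40 weeks. All were 50 weeks old when the kidneys were taken. The comparison asked how long atorvastatin treatment altered the diabetic kidney. Only males were enrolled. Mice of both groups were lost over the course of the study, and the study reported higher mortality under statins. The libraries of both groups therefore come from survivors, and the unequal loss cannot be told apart from the treatment here. One label field describes all 6 animals as treated, and the groups follow the titles and the treatment field. No lean or nondiabetic animals entered the comparison.

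TGF-beta is secreted in a latent complex, held in the matrix by some LTBP proteins such as LTBP1, and is released by integrins, proteases or thrombospondin. The free ligand binds TGFBR2, which phosphorylates TGFBR1, and TGFBR1 phosphorylates SMAD2 and SMAD3, which enter the nucleus with SMAD4. SMAD7 is induced by the signal and turns the receptor off. In the kidney the pathway is best known for driving matrix deposition in fibrosis, with CTGF and collagens among its target products. Transcript levels do not measure the activated ligand or the phosphorylated SMADs.

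Depth was similar between groups. The Db libraries held 13134930, 11381678 and 12426051 counts, and the Db + Ato10 libraries 14578023, 14667909 and 13133241. The libraries of the treated group differed widely from each other. CPM here is a gene's count scaled to a common library size. The leading principal component of log2 CPM took up 71.1% of the variance. Scores on it were 107, 46.1 and -18.8 for replicates 1, 2 and 3 of Db + Ato10, against -55.4, -26.9 and -52.0 for those of Db. The Db library labelled replicate 1 had 2 counts over 4 Y-linked genes (Ddx3y, Uty, Kdm5d and Eif2s3y), against 1419 to 2116 in the other 5, which goes against the enrolment of males only. The members are therefore also given without it.

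Tgfb1 differed most among the members, and no member passed the test. By edgeR's quasi-likelihood test, with a call set at a fold change over 1.5 and an adjusted p under 0.05, 0 of 9 members were called, beside 0 of all 13679 genes tested (0.0%). At an unadjusted p under 0.05 by edgeR there were 4 of 9 members, all higher in Db + Ato10 (Tgfb1, Tgfb2, Tgfbr1 and Tgfbr2), beside 16.9% of all genes in either direction and 11.2% higher. With 1 library left out, the share of all genes differed too. The count was 1 member beside 7.68% of genes for Db replicate 1 and 1 beside 11.4% for Db + Ato10 replicate 2. It was 2 beside 12.2% and 8.19% for Db replicates 2 and 3, 2 beside 12.4% for Db + Ato10 replicate 1, and 6 beside 29.9% for Db + Ato10 replicate 3. The groups did not overlap for 2 of 9 members, Tgfb1 and Tgfbr2, both higher, beside 23.2% of all genes in either direction and 12.0% higher. The share of members that did not overlap was thus near that of all genes. DESeq2 called 1 of 9 members, Tgfb1, beside 6.48% of genes in either direction and 5.19% higher. The fitted log2 fold change was above 0 for 7 of 9 members, beside 49.4% of all genes. Its median was 0.57 over the members and -0.01 over all genes. Over the members the median was 0.27 without Db + Ato10 replicate 1. Without Db + Ato10 replicate 3, edgeR called 2 of 9 members, Tgfb1 and Tgfbr2, beside 8.18% of all genes. The design, 3 libraries against 3, allows no exact permutation p below 0.1.

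**Figure D1:**
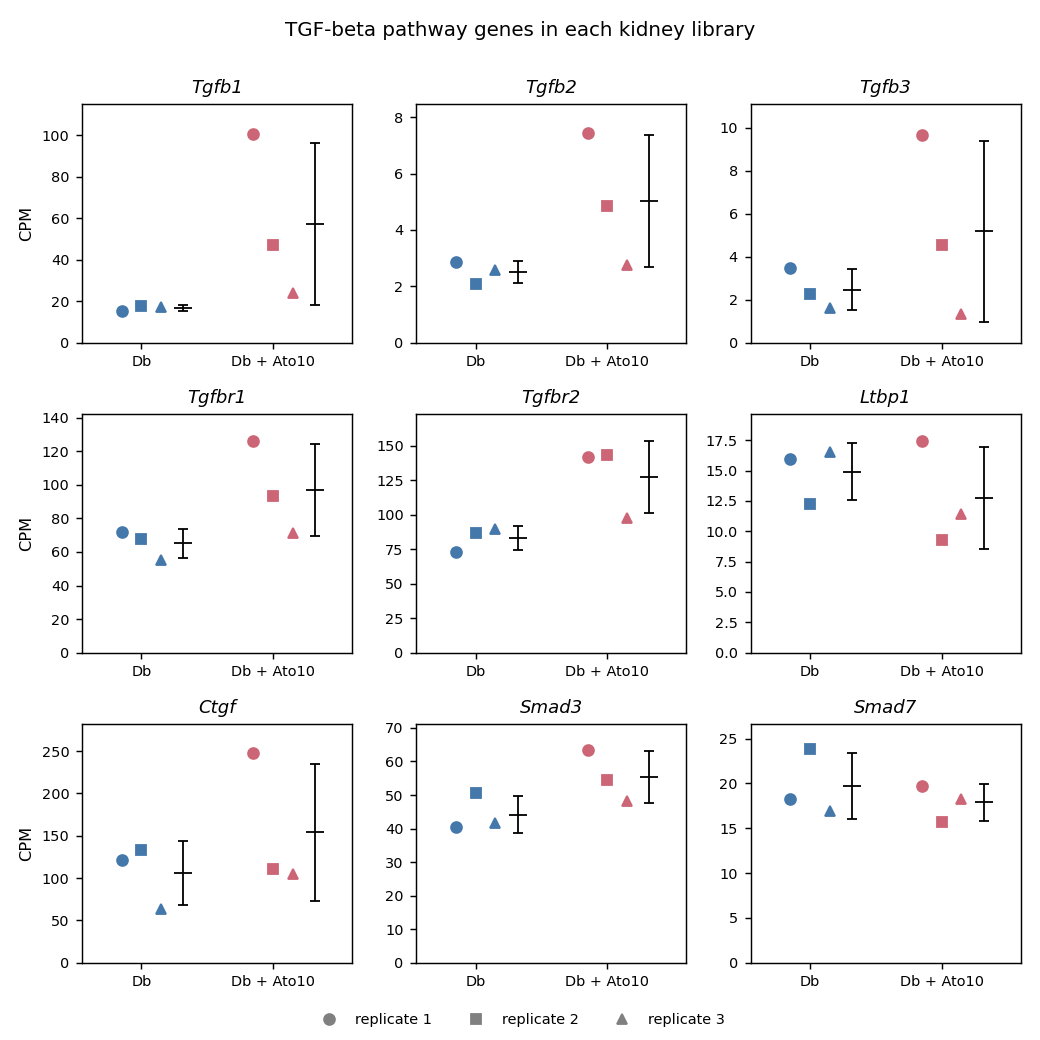
CPM of each of the 9 genes (vertical axes, linear from 0) in the 3 Db and 3 Db + Ato10 kidney libraries, with a symbol for each replicate and a black line and bar for the group mean and SD. Tgfb1 reached 100.5 CPM in Db + Ato10 replicate 1, while Smad7 lay between 15.7 and 23.8 CPM in all 6 libraries.

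Among the ligands, Tgfb1, the main isoform in injured kidney, had 15.2, 17.7 and 17.0 CPM in the Db libraries. In Db + Ato10 replicates 1, 2 and 3 it had 100.5, 47.0 and 24.0 CPM. All 3 treated libraries lay above every Db library, and they differed from each other far more than the Db libraries did (16.6 ± 1.30 against 57.2 ± 39.2 CPM, mean ± SD, n = 3 each). The edgeR log2 fold change of Tgfb1 (gene 21803) was 1.78, SE 0.49, a 3.44-fold difference, with an adjusted p of 0.239, the smallest value of any gene and one shared with others. The difference was 1.11 on the log2 scale without Db + Ato10 replicate 1. The DESeq2 adjusted p of Tgfb1 was 0.0135, but it was 0.160, 0.0735 and 0.120 without Db replicates 1, 2 and 3 and 0.0641 without Db + Ato10 replicate 2. Without Db + Ato10 replicate 1 it was 0.0484, and without replicate 3 it was 1.24e-06, both by DESeq2.

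Tgfb2 and Tgfb3, the other two isoforms, were scarce. Tgfb2 had 2.86, 2.08 and 2.59 CPM in Db and 7.44, 4.86 and 2.76 CPM in Db + Ato10. The lowest treated library lay below the highest Db library, and the edgeR log2 fold change was 1.00, SE 0.41, adjusted p 0.287, and 0.61 without Db + Ato10 replicate 1. Tgfb3 had 3.50, 2.25 and 1.62 CPM in Db and 9.68, 4.52 and 1.34 CPM in Db + Ato10, so that its treated group held both the highest and the lowest library. Its log2 fold change was 1.08, SE 0.70, and 0.27 without Db + Ato10 replicate 1. Tgfb2 rested on 24 to 113 counts and Tgfb3 on 17 to 147 counts a library.

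Of the receptors, Tgfbr2, which binds the ligand, had 73.0, 86.5 and 89.7 CPM in Db and 141.5, 143.3 and 97.3 CPM in Db + Ato10. The groups did not overlap, with replicate 3 of the treated group closest to Db. The edgeR log2 fold change of Tgfbr2 was 0.62, SE 0.19, adjusted p 0.239, and without Db + Ato10 replicate 3 it was 0.78, adjusted p 0.0401. Tgfbr1, its partner kinase, had 72.1, 67.6 and 55.5 CPM in Db and 125.9, 93.5 and 71.1 CPM in Db + Ato10. The groups met at the lowest treated library, and the edgeR log2 fold change was 0.57, SE 0.23, adjusted p 0.287, and 0.35 without Db + Ato10 replicate 1.

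Ltbp1, which anchors latent TGF-beta, showed no difference beyond its spread. It had 16.0, 12.2 and 16.6 CPM in Db and 17.5, 9.32 and 11.4 CPM in Db + Ato10, a log2 fold change of -0.23 with SE 0.28. It was -0.52 and -0.03 without Db + Ato10 replicates 1 and 2, -0.35 without Db replicate 2 and -0.15 without Db replicate 3 or Db + Ato10 replicate 3. Smad3 had 40.4, 50.6 and 41.5 CPM in Db and 63.6, 54.4 and 48.2 CPM in Db + Ato10, overlapping, with a log2 fold change of 0.33, SE 0.16, and an edgeR adjusted p of 0.344. Smad7, the feedback inhibitor, had 18.3, 23.8 and 16.9 CPM in Db and 19.8, 15.7 and 18.3 CPM in Db + Ato10. Its log2 fold change was -0.14, SE 0.19, and 0.03 without Db replicate 2, so its direction hung on that library. It was -0.23 without Db replicate 3, and -0.20 and -0.03 without Db + Ato10 replicates 1 and 2.

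Ctgf, a matrix-associated target of the pathway, was the most abundant member. It had 121.5, 133.5 and 63.2 CPM in Db and 247.6, 110.5 and 104.3 CPM in Db + Ato10. A single treated library lay above Db, and the other two lay within the range of Db. The edgeR log2 fold change of Ctgf was 0.54, SE 0.43, adjusted p 0.510. With Db + Ato10 replicate 1 left out it was 0.03, and with Db replicate 3 left out it was 0.27.

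Without Db replicate 1, edgeR called 0 of 9 members and 0 genes of all, with 1 member and 1043 genes of all at an unadjusted p under 0.05. The log2 fold changes were then 1.73 for Tgfb1, 1.12 for Tgfb2, 1.44 for Tgfb3, 0.67 for Tgfbr1, 0.54 for Tgfbr2 and -0.16 for Ltbp1. They were 0.67 for Ctgf, 0.28 for Smad3 and -0.17 for Smad7. Each kept the direction it had with all 6 libraries.

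Levels between genes were compared in TPM, the deposited values scaled by gene length. In Db the order of mean TPM ± SD (n = 3) was Ctgf 78.9 ± 28.1, Tgfbr2 30.3 ± 3.20, Tgfbr1 19.7 ± 2.53, Smad3 16.7 ± 2.26 and Tgfb1 13.8 ± 1.09. Below them stood Smad7 with 9.34 ± 1.84, Ltbp1 with 4.56 ± 0.74, Tgfb3 with 1.27 ± 0.49 and Tgfb2 with 0.84 ± 0.11 TPM. Tgfbr1 and Smad3 overlapped between libraries, as did Tgfb3 and Tgfb2, and the other neighbours did not. In Db + Ato10 Tgfb1 stood beside Tgfbr2, with 43.9 ± 28.2 and 43.9 ± 9.55 TPM. Ctgf then had 106 ± 50.6, Tgfbr1 27.5 ± 6.99, Smad3 20.0 ± 2.39, Smad7 7.97 ± 0.58, Ltbp1 3.68 ± 1.06, Tgfb3 2.49 ± 1.93 and Tgfb2 1.58 ± 0.66 TPM. In that group Smad3 and Smad7 did not overlap, nor did Smad7 and Ltbp1, while all other neighbours did.

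Of the genes listed as TGF-beta targets, Col1a1, Col1a2, Col3a1 and Fn1 were among those higher in the treated libraries by DESeq2 and not by edgeR. Of 20 tested, 18 had a fitted log2 fold change above 0 and 2 below. In these, edgeR called 0, with 14 at an unadjusted p under 0.05, all higher in Db + Ato10, beside 16.9% of all genes. The median log2 fold change of the list was 2.70, and 1.16 without Db + Ato10 replicate 1. DESeq2 called 12 of the list, all higher, beside 6.48% of genes. Of these 12, 7 lost the call when at least 1 library was left out. Over those fits DESeq2 called 5 to 17 of the list. The fewest came without Db replicate 1 (195 genes of all) and the most without Db + Ato10 replicate 3 (2614 genes of all). In the latter fit edgeR called 12 of the list, beside 8.18% of all genes. Col1a1, a fibrillar collagen chain, had 4.69, 14.1 and 4.36 CPM in Db and 369.5, 178.4 and 25.2 CPM in Db + Ato10, a log2 fold change of 4.63 with SE 1.05. It kept the order of the treated libraries seen for Tgfb1, with replicate 1 highest and replicate 3 nearest to Db. The leading principal component over all genes tested had the same order (107, 46.1 and -18.8), so the order was not particular to these genes. Timp1, an inhibitor of matrix metalloproteinases and called by DESeq2, had 0.24 to 0.69 CPM in Db and 8.43 to 130.8 CPM in Db + Ato10. Its log2 fold change was 7.04, SE 1.21. Timp1 reached 10 counts only in the Db + Ato10 libraries, which alone took it past the count filter, so its value is not ranked. The counts and median of the list included Timp1. Among the other genes called by DESeq2, log2 fold changes were 3.90 for Col3a1, 2.75 for Col1a2, 3.07 for Fn1 (fibronectin), 3.18 for Tgfbi, 3.20 for Junb, 3.26 for Lox, 3.32 for Postn, 2.65 for Vim and 1.66 for Sparc. The DESeq2 calls of Col1a1, Col3a1 and Tgfbi held in all 6 fits with a library left out. Timp1 could be tested only in the 3 fits lacking a Db library, so the dependence of its call on the treated libraries was not tested. Without Db replicate 1 the calls of Col1a2, Fn1, Junb, Lox, Postn, Vim and Sparc were lost, and without Db replicate 3 those of the same genes other than Junb. Postn, Vim and Sparc also lost theirs without Db replicate 2, Lox, Postn, Vim and Sparc without Db + Ato10 replicate 1, and Sparc without Db + Ato10 replicate 2. Their highest DESeq2 adjusted p was 0.0671 for Col1a2, 0.0780 for Fn1, 0.0569 for Junb, 0.294 for Lox, 0.523 for Postn, 0.168 for Vim and 0.277 for Sparc. Among the most abundant, Cdkn1a (2.03, SE 0.90) and Col4a1 (0.86, SE 0.31) were called by neither tool. With Db + Ato10 replicate 1 left out, the log2 fold changes were 3.74 for Col1a1, 3.14 for Col3a1, 2.00 for Col1a2, 1.91 for Fn1, 1.96 for Tgfbi and 1.75 for Junb. In that fit they were 1.54 for Lox, 1.31 for Postn, 1.16 for Vim, 0.86 for Sparc, 0.59 for Cdkn1a and 0.55 for Col4a1.

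**Figure D2:**
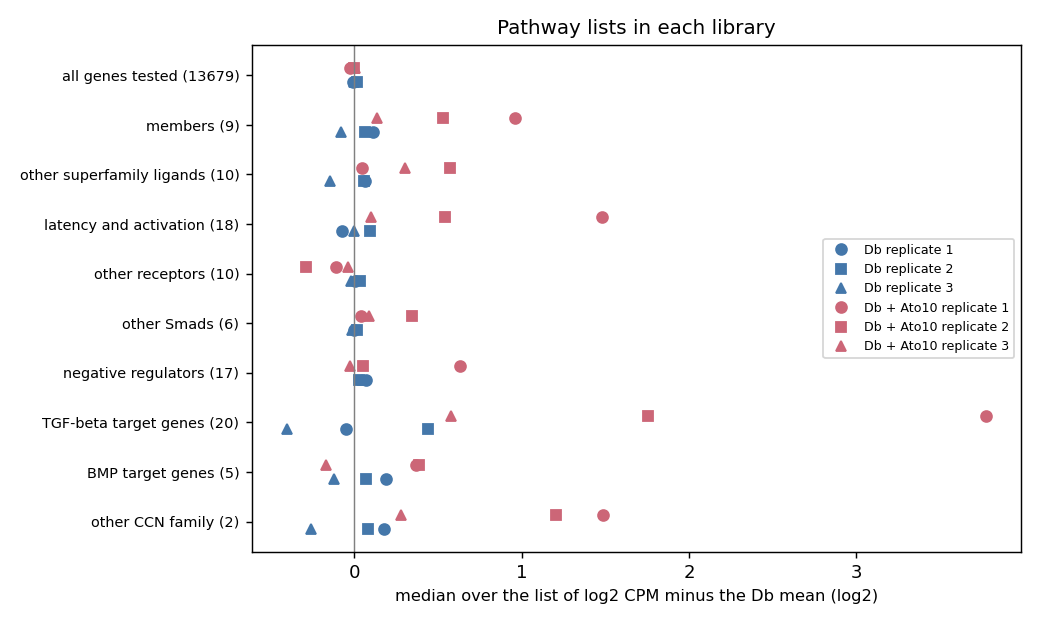
Median over each list of log2 CPM minus the Db mean (horizontal axis, log2), by library, with the number of genes tested in brackets and a symbol and colour for each library. The TGF-beta target genes lie at 3.77, 1.75 and 0.58 in Db + Ato10 replicates 1, 2 and 3, and the members at 0.96, 0.53 and 0.13.

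Of the 18 tested genes listed under latency and activation, 16 had a fitted log2 fold change above 0 and 2 below. In these, edgeR called 0, and 9 had an unadjusted p under 0.05, 8 of them higher, beside 16.9% of all genes. DESeq2 called 5, all higher, beside 6.48% of genes. With 1 library left out, DESeq2 called 0 (Db + Ato10 replicate 1) to 10 (replicate 3), beside 313 and 2614 genes of all. Without replicate 3 edgeR called 5, beside 8.18% of all genes. The DESeq2 calls with all 6 libraries included the proteases Mmp9 (log2 fold change 7.70, SE 2.03) and Mmp2 (2.77, SE 0.77), and Ltbp2 (5.25, SE 1.33). The others were Nrros (2.21, SE 0.67), which holds latent TGF-beta on myeloid cells, and the procollagen protease Bmp1 (1.52, SE 0.47). Mmp9 reached 10 counts only in the Db + Ato10 libraries, which alone took it past the count filter, so its value is not ranked. The counts and median of the list included Mmp9. Ltbp2 had 0.08, 1.21 and 1.13 CPM in Db and 65.1, 24.9 and 2.36 CPM in Db + Ato10. The DESeq2 calls of Nrros (adjusted p up to 0.185) and Bmp1 (up to 0.259) held only without Db + Ato10 replicate 3 when a library was left out. That of Mmp2 (up to 0.110) was lost without Db replicates 1 or 3 or Db + Ato10 replicate 1, and that of Ltbp2 (0.141) without Db + Ato10 replicate 1. In the edgeR fit lacking Db + Ato10 replicate 1, the log2 fold changes were 4.09 for Ltbp2, 1.91 for Mmp2, 1.37 for Nrros and 0.88 for Bmp1. Mmp9 could be tested only in the 3 fits lacking a Db library, so the dependence of its call on the treated libraries was not tested. The most abundant genes of the list were called by neither tool, with log2 fold changes of 0.50 (SE 0.25) for Itgb1, 0.08 for Furin, 0.11 for Itgb5 and 0.05 for Itgav. With a library left out, Itgb1 ran from 0.34 to 0.72 and Furin from 0.05 to 0.17. Itgb5 ran from -0.28 (Db + Ato10 replicate 1 left out) to 0.32 (replicate 2), and Itgav from -0.03 (Db replicate 3) to 0.21 (Db replicate 1). The median of the list was 0.75, and 0.27 without Db + Ato10 replicate 1.

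Among the other superfamily ligands, 10 of 13 were tested, with 0 edgeR calls, 4 at an unadjusted p under 0.05 and 3 DESeq2 calls. Over all genes, 16.9% had an unadjusted edgeR p under 0.05 and DESeq2 called 6.48%. Gdf15, a stress-responsive ligand, had 20.0, 10.6 and 12.3 CPM in Db and 65.3, 39.4 and 29.4 CPM in Db + Ato10, a log2 fold change of 1.64 with SE 0.37. Inhbb, an activin subunit, had a log2 fold change of 2.88, SE 0.96, and Bmp5 one of -2.32, SE 0.43, the latter on 1.29 to 1.51 CPM in Db and 0.16 to 0.40 CPM in Db + Ato10. With a library left out, DESeq2 lost the call of Gdf15 without Db replicate 3 (adjusted p 0.0832) and that of Inhbb without Db replicates 1 or 3 or Db + Ato10 replicate 1 (up to 0.258). The edgeR log2 fold change of Inhbb ran from 1.72, lacking Db + Ato10 replicate 1, to 4.10, lacking Db replicate 2, and that of Gdf15 from 1.27 to 1.98. Bmp5 reached 10 counts only in the Db libraries, so fits lacking one of these could not test it. The counts and median of the list included Bmp5. Without Db + Ato10 replicates 1, 2 and 3 its edgeR log2 fold change was -2.65, -2.28 and -2.06 (edgeR adjusted p 0.347, 0.432 and 0.0459). DESeq2 gave it an adjusted p only without replicate 3 (0.0236). The dependence of its call on the Db libraries was not tested. The abundant ligands Bmp6 (0.05), Bmp4 (-0.08) and Bmp7 (-0.37) passed neither test. With a library left out, Bmp6 ran from -0.15 (Db + Ato10 replicate 2) to 0.33 (replicate 1), Bmp4 from -0.37 (Db + Ato10 replicate 3) to 0.20 (replicate 1) and Bmp7 from -0.49 to -0.25. The median of the list was 0.28, moving to 0.02 when Db + Ato10 replicate 2 was left out and reaching 0.45 when Db replicate 3 was.

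No receptor or Smad outside the members was called with all 6 libraries, where DESeq2 called 6.48% of genes. An unadjusted edgeR p under 0.05 was reached by 16.9% of all genes. Of 10 other receptors tested, edgeR and DESeq2 called 0, with 1 at an unadjusted edgeR p under 0.05, and the median log2 fold change was -0.17, and -0.04 and -0.27 without Db + Ato10 replicates 2 and 3. Eng had -0.24, Bmpr1a -0.03, Acvr1b -0.33 and Bmpr2 -0.05. With a library left out, Eng ran from -0.49 (Db + Ato10 replicate 1) to 0.07 (replicate 2), Bmpr1a from -0.10 (Db replicate 3) to 0.07 (Db replicate 1), Bmpr2 from -0.19 (Db + Ato10 replicate 1) to 0.06 (replicate 2) and Acvr1b from -0.39 to -0.27. Of 6 other Smads, both tools called 0, with 1 at an unadjusted edgeR p under 0.05 and a median of 0.18, which was 0.0049 and 0.28 without Db + Ato10 replicates 2 and 3 and 0.12 without Db replicate 1. Smad4, the common partner, had 0.17, Smad5 -0.01 and Smad2 0.26. Over the fits with a library left out, Smad4 ran from 0.05 to 0.29, Smad5 from -0.07 (Db + Ato10 replicate 3) to 0.08 (replicate 1) and Smad2 from 0.04 to 0.39. Smad1, a carrier of BMP signals, had 10.5, 12.9 and 10.1 CPM in Db and 25.9, 18.8 and 13.8 CPM in Db + Ato10. Its groups did not overlap, and its log2 fold change was 0.81, SE 0.27, with an edgeR adjusted p of 0.239. It ran from 0.56 to 1.01 with a library left out. The 5 BMP target genes had 0 calls by both tools, 0 at an unadjusted edgeR p under 0.05 and a median of 0.23 (0.38 without Db + Ato10 replicate 3), with 0.23 for Id2, 0.59 for Id3, 0.60 for Id1 and -0.58 for Id4. Over the 6 smaller fits Id2 ran from 0.17 to 0.38, Id3 from 0.31 to 0.88, Id1 from 0.23 to 0.92 and Id4 from -0.76 to -0.32.

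Of 17 negative regulators, edgeR called 0 and 4 had an unadjusted p under 0.05, beside 16.9% of all genes. DESeq2 called 2, beside 6.48% of genes. They were Tgif1 (log2 fold change 1.63, SE 0.36), a SMAD corepressor, and the BMP antagonist Chrd (0.93, SE 0.26). The median of the list was 0.10. It was 0.35 without Db replicate 3, 0.16 without Db replicate 1, and 0.03, 0.23 and 0.18 without Db + Ato10 replicates 1, 2 and 3. DESeq2 lost the call of Tgif1 without Db replicates 1 or 3 (adjusted p up to 0.0716) and kept that of Chrd only without Db + Ato10 replicate 3 (up to 0.209). The list had 0 to 7 DESeq2 calls with 1 library left out, the most without Db + Ato10 replicate 3. In that fit DESeq2 called 2614 genes of all, and edgeR called 1 of the list. The most abundant were Bgn (0.94, SE 0.40), Dcn (2.42, SE 0.92), both matrix proteoglycans that bind TGF-beta, and the phosphatase gene Ppm1a (-0.14, SE 0.12). DESeq2 gave Dcn no adjusted p. Dcn had 11.4, 23.8 and 31.3 CPM in Db and 284.5, 33.7 and 38.4 CPM in Db + Ato10. Without Db + Ato10 replicate 1 its log2 fold change was 0.71, that of Bgn 0.52 and that of Tgif1 1.14, and with a library left out Ppm1a ran from -0.19 to -0.09. Of the other CCN family, 2 of 5 were tested with 0 edgeR calls, Cyr61 with a log2 fold change of 0.65 and SE 0.35, and Wisp1 with 1.56 and SE 0.39, at an unadjusted p under 0.05 and called by DESeq2. With a library left out, that call held in 2 of 6 fits, those lacking Db replicate 2 or Db + Ato10 replicate 3 (adjusted p up to 0.174).

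Markers of other cell types differed in the same libraries. In bulk tissue, a change in the number of cells of a type and a change in RNA per cell cannot be told apart. The 8 macrophage markers, all tested and led by Lyz2, summed to 127, 227 and 174 CPM in Db and 4467, 1198 and 257 CPM in Db + Ato10. The 6 neutrophil markers, 4 tested and led by S100a9, summed to 5.32, 9.97 and 5.41 CPM in Db and 9629, 102.5 and 11.3 CPM in Db + Ato10, with Ly6g and Retnlg at 0 in at least 1 library. Replicate 1 of the treated group was highest and replicate 3 nearest to Db in both sums. Tgfb1 and the leading principal component over all genes tested had that order too. The 8 fibroblast and pericyte markers, led by Col1a2 and sharing 3 genes with the pathway lists, summed to 188, 253 and 188 CPM in Db and 1323, 547 and 250.2 CPM in Db + Ato10. The shared genes Col1a1, Col1a2 and Dcn had log2 fold changes of 4.63, 2.75 and 2.42. The others had 0.01 for Rgs5, 0.20 for Cspg4, 0.51 for Pdgfra, 0.95 for Pdgfrb and 2.72 for Lum. Lacking Db + Ato10 replicate 1, these were -0.43, 0.0046, -0.01, 0.50 and 1.17 in that order. The 6 injured tubule markers, led by Lcn2, summed to 151, 256 and 189 CPM in Db and 5763, 1704 and 651 CPM in Db + Ato10. The part of these cell types in the results for the pathway genes was not tested.

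The nephron itself was clear in all 6 libraries. The 7 proximal tubule markers, led by Slc34a1, summed to 9687, 7114 and 9079 CPM in Db and 1030, 4181 and 8930 CPM in Db + Ato10. The 5 thick ascending limb markers, led by Umod, summed to 8420 to 9192 CPM in Db and 2166 to 6049 CPM in Db + Ato10, and the 4 distal convoluted tubule markers, led by Slc12a3, to 2156 to 3334 and 838 to 1576 CPM. Collecting duct (6, led by Aqp2) gave 526 to 904 and 323 to 580 CPM, podocyte (6, led by Podxl) 384 to 586 and 231 to 633 CPM, and endothelium (6, led by Pecam1) 292 to 347 and 153 to 388 CPM. Smooth muscle (6, led by Smtn, 2 of them also in the target list) gave 171 to 199 and 183 to 391 CPM. T cell (6 in the table, led by Cd3g) gave 1.99 to 5.98 and 2.91 to 18.6 CPM, and B and plasma cell (6, led by Jchain, Ms4a1 at 0 in at least 1 library) 3.66 to 21.3 and 12.3 to 336 CPM. Platelet and megakaryocyte markers (6, led by Pf4, with Gp9, Gp1bb and Treml1 at 0 in at least 1 library) gave 3.73 to 8.40 and 8.74 to 98.5 CPM. Urothelium and squamous epithelium (7, led by Krt20, Krt14 at 0 in at least 1 library) gave 2.91 to 4.33 and 37.3 to 192 CPM. Adipocyte (4 in the table, led by Fabp4, with Adipoq and Plin1 at 0 in at least 1 library) gave 62.8 to 89.2 and 37.9 to 163 CPM.

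The genes whose library pattern was closest to Tgfb1, by root mean square difference of centred log2 CPM over 6 libraries, were Egr1 (0.08), Sbno2 (0.10), Bmp1 (0.14), Arpc1b (0.14) and Pdlim7 (0.14). Egr1 had 12.1, 13.0 and 11.7 CPM in Db and 76.3, 34.4 and 19.7 CPM in Db + Ato10. Closest to Ctgf were Sema3a (0.12), Rgs2 (0.14), Pkn3 (0.15), Hebp2 (0.17) and Sema7a (0.17). Rgs2 had 24.3, 35.0 and 16.6 CPM in Db and 65.1, 26.3 and 27.0 CPM in Db + Ato10.

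At the level of transcripts, 19 of the 31 transcripts of the members were tested. Both edgeR and DESeq2 called 0 of them, with 3 at an unadjusted edgeR p under 0.05. Over all 30175 transcripts tested, edgeR called 0.0%, 8.19% had an unadjusted p under 0.05 and DESeq2 called 2.96%. Tgfb1, Tgfb3 and Ctgf had 1 transcript each, so gene and transcript held the same reads. The split among the others varied between libraries of a group. Of the 4 Tgfbr1 transcripts, 3 stood at 0 in a library, as did 13 of the 14 Ltbp1 transcripts. One Tgfbr1 transcript had estimated counts of 0, 406 and 322 in Db and 583, 570 and 303 in Db + Ato10. No isoform is therefore described by its level.

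RefSeq promoters (GRCm38.p6) were used for 6 of the 9 members. Those of Tgfb1, the ligand with the largest difference, and of Tgfb2 are shown over the 250 bases before the start, with motif matches on either strand in capitals. The motifs searched were the letters GGGCGG for the GC box, the letters CAGAC for the Smad-binding element, the letters TATAAA for the TATA box and the letters TGANTCA for the AP-1 site. The Tgfb1 window, chr7:25686752-25687001 on the plus strand, was 75.2% G and C and held 5 GC boxes, 0 Smad-binding elements and 0 TATA boxes. The Tgfb2 window, chr1:186705990-186706239 on the minus strand, was 53.6% G and C and held 0 GC boxes, 2 Smad-binding elements and 1 TATA box. The AP-1 site was in neither window. Of 32851 promoters of the same length, 32.7% held a GC box, 42.2% a Smad-binding element, 12.4% a TATA box and 6.75% an AP-1 site.
Tgfb1: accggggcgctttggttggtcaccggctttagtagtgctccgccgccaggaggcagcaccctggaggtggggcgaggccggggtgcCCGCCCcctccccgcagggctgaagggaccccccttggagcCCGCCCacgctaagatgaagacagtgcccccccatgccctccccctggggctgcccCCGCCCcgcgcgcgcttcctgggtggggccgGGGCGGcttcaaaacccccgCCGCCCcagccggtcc
Tgfb2: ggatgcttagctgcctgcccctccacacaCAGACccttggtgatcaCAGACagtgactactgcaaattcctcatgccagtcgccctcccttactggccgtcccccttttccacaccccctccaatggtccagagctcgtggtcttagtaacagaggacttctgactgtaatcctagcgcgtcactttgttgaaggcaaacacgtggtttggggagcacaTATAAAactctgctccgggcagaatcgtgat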

How the data were processed

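Kidney RNA was sequenced on a BGISEQ-500 after oligo dT selection or rRNA depletion. Values deposited by the authors and used here were expected counts of genes and of transcripts, and the FPKM and TPM of genes. The submitters' processing notes name HISAT, Bowtie2 2.2.5 and mm9, and the counting tool is not given in the sources used here. Deposited expected counts were rounded to whole numbers. The other 12 per-sample columns, FPKM and TPM of transcripts, were not used here. Genes reaching 10 counts in 3 or more libraries were fitted with edgeR 4.0.16 (TMM, quasi-likelihood test, Benjamini-Hochberg over all genes tested) in R 4.3.3, without a block, since no source gives a pairing. The steps were tested on simulated data. Fitted CPM used TMM library sizes. DESeq2 1.42.0, limma 3.58.1 (also on log2 of FPKM or TPM plus 1), other filters and scalings, and leaving out each library were alternatives. SE is the log2 fold change over the square root of F. PCR duplicates cannot be told apart, so the depth covers counting error only. Each p-value sets a group difference against the spread between libraries within the groups.

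The 8 pathway lists and 16 cell type lists were described by counts, medians and sums. Members and lists were chosen with earlier results of these data known. Named genes were the members, the 4 tested genes of highest mean TPM in each pathway list, every pathway list gene called by edgeR or DESeq2, and the 5 genes closest to Tgfb1 and to Ctgf. One gene that this rule names is not reported here. RefSeq (GRCm38.p6) gave promoters and the current names of Ctgf, Cyr61 and Wisp1. No coordinates of the deposited tables were used.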

Additional observations from a re-analysis of the deposited data

How the results depend on the processing

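Over the alternatives, edgeR and limma called 0 of 9 members and 0 genes of all with upper-quartile scaling, both other count filters, bias-adjusted deviances, limma-voom and limma on log2 of FPKM or TPM plus 1, with 1820 to 2782 genes at an unadjusted p under 0.05. DESeq2 called 1 member and 884 genes. Leaving out 1 library, edgeR called 0 to 2 members and 0 to 1106 genes, all calls coming without Db + Ato10 replicate 3. Leaving out 1 library under DESeq2, an alternative chosen after seeing the data, gave 0 to 5 members and 195 to 2614 genes, the most without Db + Ato10 replicate 3 and the fewest genes without Db replicate 1. The cause was not tested. The transcripts of the members had 0 calls in all alternatives run. The median log2 fold change of the members ranged from 0.27 to 0.76 with 1 library left out.

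Direction was kept in all 15 alternatives for 8 members. Smad7 had -0.23 to 0.028 with 1 library left out, the latter without Db replicate 2, and kept its direction in 14. Tgfb1 ranged from 1.11 to 2.15, Tgfbr2 from 0.50 to 0.78 and Ctgf from 0.03 to 0.76 on the log2 scale. Over those alternatives the adjusted p of Tgfb1 ran from 0.0135 with DESeq2 to 0.588. The medians of the 8 other pathway lists moved beyond their spread in 3 of 64 alternatives, all without Db + Ato10 replicate 2 (0.02 for other ligands, -0.04 for other receptors and 0.0049 for other Smads).

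With the replicate number as a block, edgeR called 0 members, 0 genes of all and 0 member transcripts, with 1856 genes at an unadjusted p under 0.05. The numbers carry no stated pairing, and deviations of libraries that share a number correlated at -0.15 to 0.21 over genes, against -0.37 to 0.31 for other pairs. Of 6 libraries, 3 correlated best with their own number. Of the list genes named, 8 changed direction with 1 library left out, a check chosen after seeing the data. They were Bmp4, Bmp6, Itgav, Itgb5, Eng, Bmpr1a, Bmpr2 and Smad5, and edgeR and DESeq2 called none of these 8 with all 6 libraries. Among the members, Tgfb2 and Tgfb3 had the fewest counts in each library, so depth limits them most within that set.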
